A study of Rattus norvegicus with 30 samples.

Results

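The Nduf genes encode the nuclear subunits of mitochondrial complex I and, under Ndufaf symbols, assembly factors that help to build it. They were taken as every gene whose symbol starts with Nduf and whose counts summed to at least 300 over the 30 libraries, which gave 43 of 17455 genes in the deposited table. Of these, 7 are assembly factors and the other 36 are called subunit genes here by symbol. The 36 include Ndufa4, which is now placed with cytochrome c oxidase. The subunit genes fall into 7 core genes of the peripheral arm, 9 accessory genes of that arm, 16 accessory genes of the membrane arm, the acyl carrier Ndufab1, Ndufa4 with its relative Ndufa4l2, and Ndufa10l1. A 44th Nduf gene, Ndufa1, was listed at 0 in all 30 libraries and stayed outside the rule. Ndufa3, Ndufb1, Ndufc1 and Ndufaf2 were not analysed here.

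Complex I takes electrons from NADH in its peripheral arm, passes them through a flavin and a chain of iron-sulfur clusters to ubiquinone, and pumps protons across the inner mitochondrial membrane through its membrane arm. Core subunits carry out these reactions, accessory subunits surround and stabilise them, and assembly factors join the modules and modify single subunits without staying in the finished enzyme. Neurons of the hippocampus depend on this oxidative route for most of their ATP.

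PolyA RNA was counted in dorsal hippocampus of TgF344-AD rats, labelled alzheimer, and wildtype rats, with both genotypes on a western diet or on chow, to follow hippocampal gene expression in this disease model under both diets. TgF344-AD is a Fischer 344 line that carries mutated human APP and presenilin 1 transgenes driven by the mouse prion promoter in every cell that uses it, so the model is one of transgene expression and not of sporadic disease. Ages were not in the labels used here. The groups were female alzheimer on western diet (3 libraries), female wildtype on western diet (3), female alzheimer on chow (4), female wildtype on chow (4), male alzheimer on western diet (4), male wildtype on western diet (4), male alzheimer on chow (4) and male wildtype on chow (4). Each group held libraries of both labelled cohorts, 14 in cohort 1 and 16 in cohort 2. Replicate numbers are the running numbers of the sample titles.

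The libraries held between 13.93 and 31.42 M counts each (mega-counts, median 17.76), and the coefficient of variation beyond counting error was 6.27% over all genes. App, under which transgene reads can be counted, had 3137 to 3398 CPM (counts per mega-count of the library) in alzheimer libraries, against 1548 to 1782 CPM in wildtype libraries, so every library stood with its genotype label. The neuronal marker Snap25 was present in every library at 2552 to 3123 CPM, and so were the CA1 markers Wfs1 (619 to 994 CPM) and Mpped1 (294 to 417 CPM) and the dentate gyrus marker Prox1 (45.9 to 74.6 CPM), while the CA1 marker Fibcd1 was low, at 0.0603 to 1.06 CPM. Levels below are CPM after TMM scaling, are not per length and are compared only between libraries, never between genes. Fold changes are log2 values from edgeR's quasi-likelihood fit ± the standard error (SE). Each adjusted p is from that fit, with Benjamini-Hochberg adjustment over the 12547 genes tested, unless another fit is named. Fits of a cohort alone, without some libraries or with another setting were adjusted over their own sets of genes. A gene counts as lower or higher where its adjusted p was under 0.05. In bulk tissue, fewer cells of a type and less RNA per cell cannot be told apart. All 43 Nduf genes were tested, although Ndufa4l2, Ndufs6 and Ndufa10l1 were low, with means of 2.91, 1.06 and 0.569 CPM.

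The question of the genotype comparison was how hippocampal RNA differed between alzheimer and wildtype rats over both sexes and diets. Of 36 subunit genes, 12 fell, Ndufa4 among them, and 0 rose, while among all genes tested 3.89% fell and 4.14% rose. No assembly factor passed the test, with 0 of 7 lower and 0 higher. The fold change was negative for 32 of 36 subunit genes and for 6 of 7 assembly factors, and its median was −0.064 over the subunit genes and −0.065 over the assembly factors, against 0.0020 over all genes. The shifts were small, and the median SE was 0.0245 for the subunit genes, 0.0391 for the assembly factors and 0.042 for all genes. At an unadjusted p under 0.05, 22 subunit genes and 2 assembly factors were lower and 0 were higher. Counts at an unadjusted p, here and below, stand without the share of all genes and are not read as results. DESeq2 called 14 subunit genes, and 579 of the 12547 genes tested were lower in that fit. With limma-voom 12 subunit genes were called, and 550 of the 12547 genes were lower. Neither called an assembly factor or a higher Nduf gene.

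**Figure D1:**
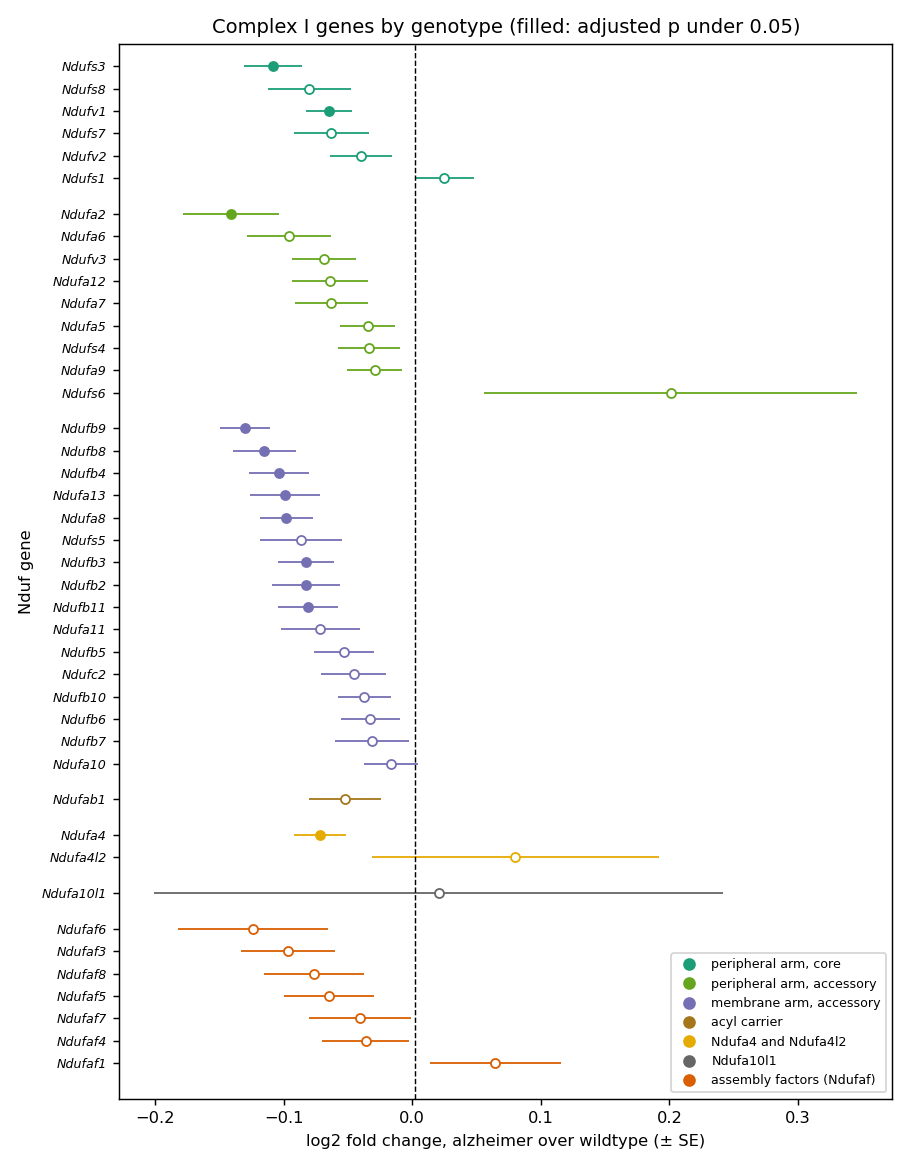
Log2 fold change of 42 of the 43 Nduf genes in alzheimer over wildtype libraries (x axis, point ± SE), grouped by role from the peripheral arm at the top to the assembly factors at the bottom; filled points passed an adjusted p of 0.05 and the dashed line is the median of all genes tested, 0.0020. All 16 membrane arm genes lie below 0, and Ndufs1, Ndufs6, Ndufa4l2, Ndufa10l1 and Ndufaf1 lie above it.

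The membrane arm held the most changed genes. Of its 16 accessory genes all 16 had negative fold changes, 8 fell, and the median was −0.082. Ndufb9, a LYR-motif subunit that binds the acyl carrier at the far end of this arm, had the smallest p of all 43 genes. Its level in females on western diet was 146, 156 and 160 CPM in alzheimer libraries, against 170, 175 and 166 CPM in wildtype libraries. In females on chow it was 163, 162, 164 and 163 CPM in alzheimer libraries, against 179, 172, 187 and 168 CPM in wildtype libraries. In males on western diet it was 159, 164, 168 and 161 CPM in alzheimer libraries, against 176, 179, 182 and 185 CPM in wildtype libraries. The groups did not overlap in any of these 3 settings. In males on chow it was 156, 155, 150 and 163 CPM in alzheimer libraries, against 177, 166, 164 and 170 CPM in wildtype libraries, again without overlap. Over both sexes and diets, 14 of 15 alzheimer libraries were below every wildtype library. Ndufb9 fell by 8.64%, a log2 fold change of −0.13 ± 0.0195 (adjusted p = 2.72e-05).

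Ndufb8, another membrane arm subunit, had 145 to 181 CPM (median 162) in alzheimer libraries, against 166 to 186 CPM (median 174) in wildtype libraries. The ranges overlapped, with 14 of 15 alzheimer libraries below the wildtype mean of their own sex and diet. Its fold change was −0.11 ± 0.0248 (adjusted p = 0.00275). Ndufa8, which faces the intermembrane space, averaged 108 ± 3.64 CPM in alzheimer libraries, against 116 ± 5.60 CPM in wildtype libraries (SD, n = 15 each), and all 15 alzheimer libraries lay below the matched wildtype mean. Its fold change was −0.098 ± 0.0208 (adjusted p = 0.00238). Ndufb4 averaged 89.3 ± 3.96 CPM in alzheimer libraries, against 96.0 ± 3.33 CPM in wildtype libraries, and 10 alzheimer libraries were below every wildtype library (adjusted p = 0.00399). Ndufb3 and the membrane arm subunit Ndufa13 (GRIM-19) were each below the matched wildtype mean in 15 of 15 alzheimer libraries, with adjusted p of 0.0149 and 0.0194.

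Ndufb11 and Ndufb2, also of the membrane arm, passed the threshold by less. Ndufb11 averaged 90.0 ± 4.5 CPM in alzheimer, against 95 ± 3.0 CPM in wildtype libraries (fold change −0.081 ± 0.0236, adjusted p = 0.0277). Its call was lost without female_alzheimer_western replicate 11, female_alzheimer_chow replicate 19, male_wildtype_chow replicate 29 or male_alzheimer_chow replicate 30, with adjusted p of 0.0670, 0.0507, 0.0511 and 0.0501. Ndufb2 averaged 80.4 ± 4.46 CPM in alzheimer libraries, against 85.2 ± 3.16 CPM in wildtype libraries (fold change −0.083 ± 0.0267, adjusted p = 0.0496). Its call was kept only without replicate 3, 4, 8, 12, 13, 16 or 20, and was lost on leaving out each of the other 23 libraries, with adjusted p of 0.0524 to 0.0947. The 8 membrane arm genes that did not pass ran from Ndufs5, at −0.087 ± 0.0320 (adjusted p = 0.0936), to Ndufa10, at −0.017.

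In the core of the peripheral arm, 2 of 7 genes fell and the median fold change was −0.063. Ndufs3, a core subunit of the ubiquinone-reducing module, had 71.8, 76.2 and 79.6 CPM in female alzheimer libraries on western diet, against 84.4, 84.4 and 85.5 CPM in female wildtype libraries on that diet. Males on western diet had 81.0, 79.0, 79.3 and 76.7 CPM in alzheimer libraries, against 90.7, 87.5, 82.8 and 86.4 CPM in wildtype libraries. Males on chow had 79.7, 82.0, 72.8 and 78.8 CPM in alzheimer libraries, against 85.2, 89.1, 85.5 and 84.3 CPM in wildtype libraries. None of these 3 pairs of groups overlapped. Females on chow did overlap, at 81.1, 78.8, 85.6 and 83.9 CPM in alzheimer libraries, against 86.6, 79.1, 83.1 and 81.3 CPM in wildtype libraries. Over both sexes and diets Ndufs3 fell by 7.25% (fold change −0.11 ± 0.0226, adjusted p = 0.00207), and 13 of 15 alzheimer libraries lay below the matched wildtype mean.

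Ndufv1, which binds NADH and the flavin, averaged 234 ± 7.04 CPM in alzheimer libraries, against 245 ± 6.66 CPM in wildtype libraries. It fell by 4.41% (fold change −0.065 ± 0.0179, adjusted p = 0.0194) and had the smallest spread within groups of all 43 genes, an SD of 0.0384 in log2 CPM. Ndufs8 and Ndufv2, which carry iron-sulfur clusters, were at −0.080 and −0.040 and did not pass. Ndufs1, which carries several of the clusters and was singled out after its values were seen, was the only core gene with a positive fold change, 0.025 ± 0.0233 (adjusted p = 0.582). Its level was 183 to 221 CPM (median 196) in alzheimer libraries, against 184 to 214 CPM (median 190) in wildtype libraries, and the ranges overlapped over nearly their whole length.

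Of the 9 accessory genes of the peripheral arm 1 fell, Ndufa2, a small subunit with a thioredoxin-like fold. In females it had 35.9, 33.9 and 40.0 CPM in alzheimer libraries on western diet, against 41.9, 38.1 and 42.0 CPM in wildtype libraries on that diet. On chow it had 36, 37.5, 42.4 and 39.0 CPM in female alzheimer libraries, against 38.7, 41.8, 43.7 and 42.9 CPM in female wildtype libraries. In males it had 33.3, 37.5, 41.7 and 38.8 CPM in alzheimer libraries on western diet, against 42.4, 38.9, 43 and 45.3 CPM in wildtype libraries on that diet. Each of these pairs of groups overlapped. On chow, male alzheimer libraries had 37.9, 40.8, 33.8 and 35.6 CPM, against 41.3, 37.4, 46.0 and 38.7 CPM in male wildtype libraries, and these overlapped as well. Ndufa2 fell by 9.32% (fold change −0.14 ± 0.0372, adjusted p = 0.0145), the largest fall among the 12 genes that passed. Ndufa6, a second LYR-motif subunit, was at −0.096 ± 0.0326 and just outside the threshold (adjusted p = 0.0635). The low Ndufs6 was at 0.20 ± 0.145, with 0.769 to 1.59 CPM in alzheimer libraries, against 0.533 to 1.41 CPM in wildtype libraries. In RefSeq for GRCr8 its symbol is also a synonym of a pseudogene, so its reads may be split.

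**Figure D2:**
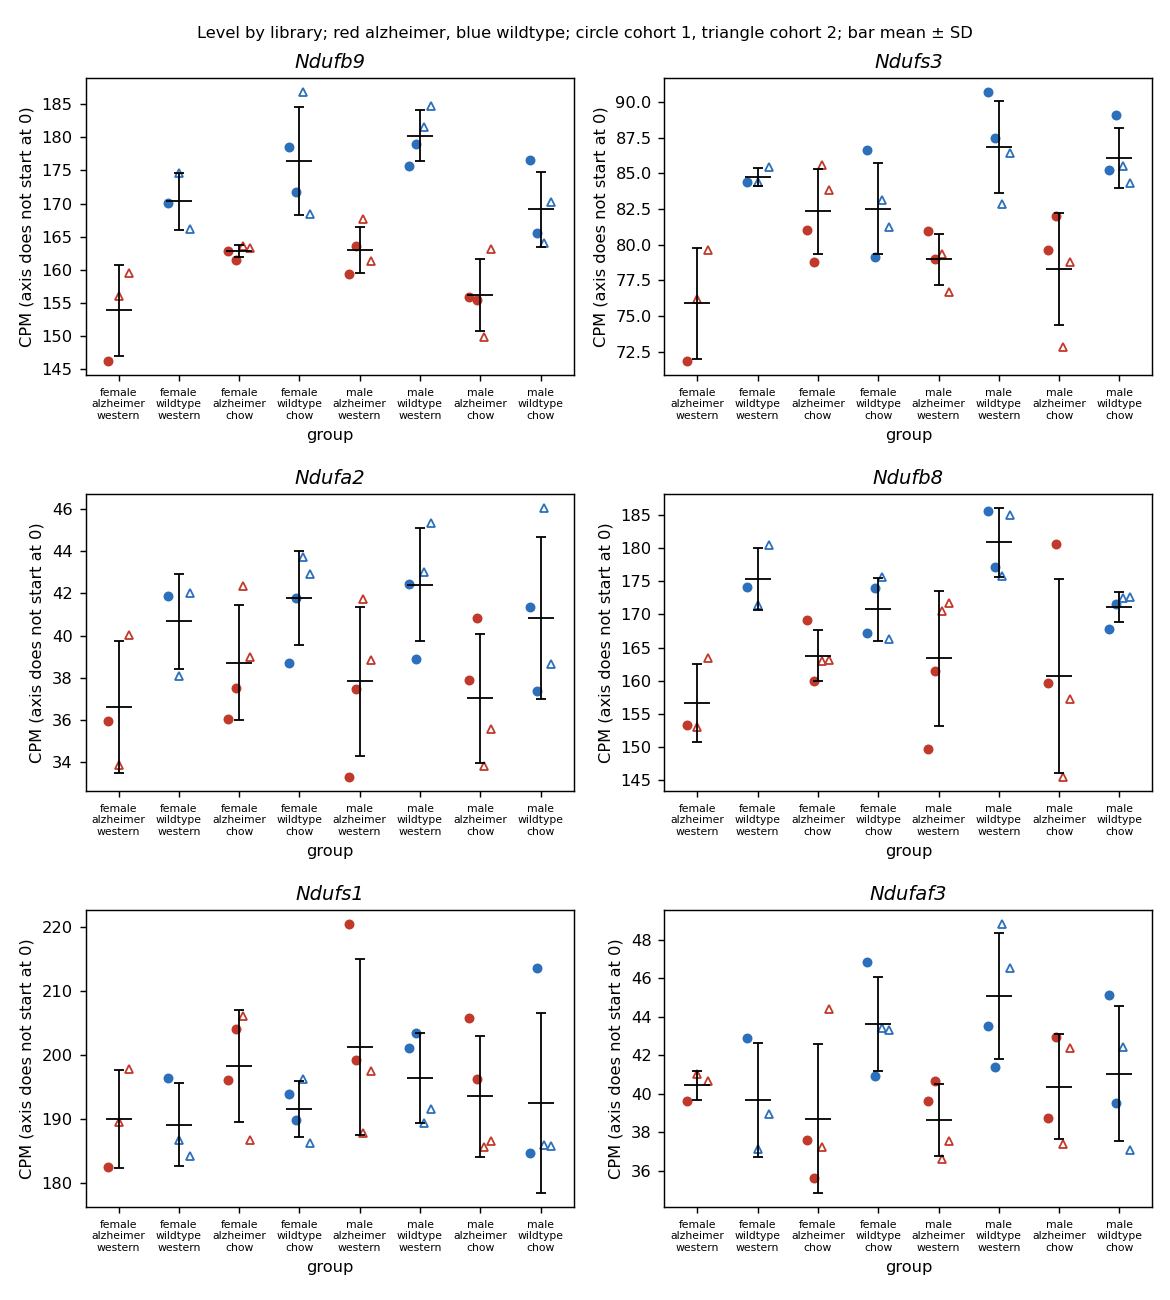
CPM of 6 Nduf genes (y axes, none of which starts at 0) in each library of the 8 groups (x axis), alzheimer in red and wildtype in blue, cohort 1 as circles and cohort 2 as triangles, with the group mean ± SD as bars. Ndufb9 separates the genotypes within each sex and diet, Ndufs3 and Ndufb8 overlap between genotypes in part of these pairs of groups, Ndufa2 overlaps in all of them, and Ndufs1 and Ndufaf3 did not pass the test.

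Ndufa4, first described with complex I and now placed with cytochrome c oxidase, had 220 to 269 CPM (median 251) in alzheimer libraries, against 254 to 274 CPM (median 261) in wildtype libraries. The alzheimer range reached lower, with 8 libraries below every wildtype library. Its fold change was −0.072 ± 0.0204 (adjusted p = 0.0242), and the call was lost without female_alzheimer_western replicate 11 (adjusted p = 0.0696) or female_wildtype_western replicate 22 (0.0603). Its relative Ndufa4l2, induced by hypoxia in other settings, averaged 3.0 ± 0.632 CPM in alzheimer libraries, against 2.83 ± 0.541 CPM in wildtype libraries and did not pass. Ndufab1, the acyl carrier that LYR-motif subunits bind, was at −0.052 ± 0.0283 and did not pass.

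Reads of some genes can fall on near-identical copies, since RefSeq names pseudogenes or like genes for 20 of the 43 genes, all 43 of which were matched by symbol. Of the 12 genes that fell, 6 have such a copy and their values are less certain, namely Ndufb4, with 11 named copies, Ndufa13, Ndufa2, Ndufb3, Ndufa4 and Ndufb11. The other 6, Ndufb9, Ndufs3, Ndufa8, Ndufb8, Ndufv1 and Ndufb2, have no copy named after them. Copies under other symbols were not searched for. No source used here gives the strand setting of the counting, and reads of overlapping antisense genes cannot be told apart.

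The assembly factors, which carry Ndufaf symbols, had a median fold change close to that of the subunit genes but a larger median SE. Ndufaf3 and Ndufaf4 act together on the ubiquinone module. Ndufaf3 had 35.6 to 44.4 CPM (median 39.6) in alzheimer libraries, against 37.1 to 48.8 CPM (median 42.9) in wildtype libraries, and the ranges overlapped. Its fold change was −0.097 ± 0.0365, the smallest p among the assembly factors (adjusted p = 0.101). Without female_alzheimer_chow replicate 19, the alzheimer library with the highest Ndufaf3, it was −0.12 and passed (adjusted p = 0.0345). Ndufaf4 was at −0.036 ± 0.0344 (adjusted p = 0.583).

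Ndufaf6, which acts early in assembly, had 8.92 to 13.1 CPM (median 10.5) in alzheimer libraries, against 10.2 to 13.6 CPM (median 11.5) in wildtype libraries. In 7 alzheimer libraries it was below every wildtype library, and the fold change was −0.12 ± 0.0581 (adjusted p = 0.199). Ndufaf5, which hydroxylates an arginine of Ndufs7, was at −0.065 (adjusted p = 0.285), and Ndufaf8, its partner, was at −0.077 (adjusted p = 0.249). Ndufaf7, a methyltransferase, was at −0.041 (adjusted p = 0.602). Ndufaf1, which works on the membrane arm, was the only assembly factor with a positive fold change, 0.064 ± 0.0512 (adjusted p = 0.499). Its level was 15.4 ± 1.5 CPM in alzheimer libraries, against 14.7 ± 1.41 CPM in wildtype libraries (SD, n = 15 each). Whether subunits and assembly factors differed from each other was not tested.

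A summary per library was the median, over the genes of a family, of log2 CPM minus the gene's mean over all 30 libraries. For the subunit genes it was −0.0928 to 0.0471 (median −0.0254) in alzheimer libraries, against −0.0207 to 0.0890 (median 0.0226) in wildtype libraries. For the assembly factors it was −0.112 to 0.0711 (median −0.0353) in alzheimer libraries, against −0.0689 to 0.0959 (median 0.0450) in wildtype libraries. In each family 13 of 15 alzheimer libraries lay below the wildtype median, and the ranges overlapped. By group, the subunit summary averaged −0.0629 in female alzheimer and 0.0176 in female wildtype libraries on western diet, and −0.0051 in female alzheimer and 0.0427 in female wildtype libraries on chow. It averaged −0.0269 in male alzheimer and 0.0583 in male wildtype libraries on western diet, and −0.0389 in male alzheimer and 0.0128 in male wildtype libraries on chow. The alzheimer mean was the lower in each of the 4 pairs.

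**Figure D3:**
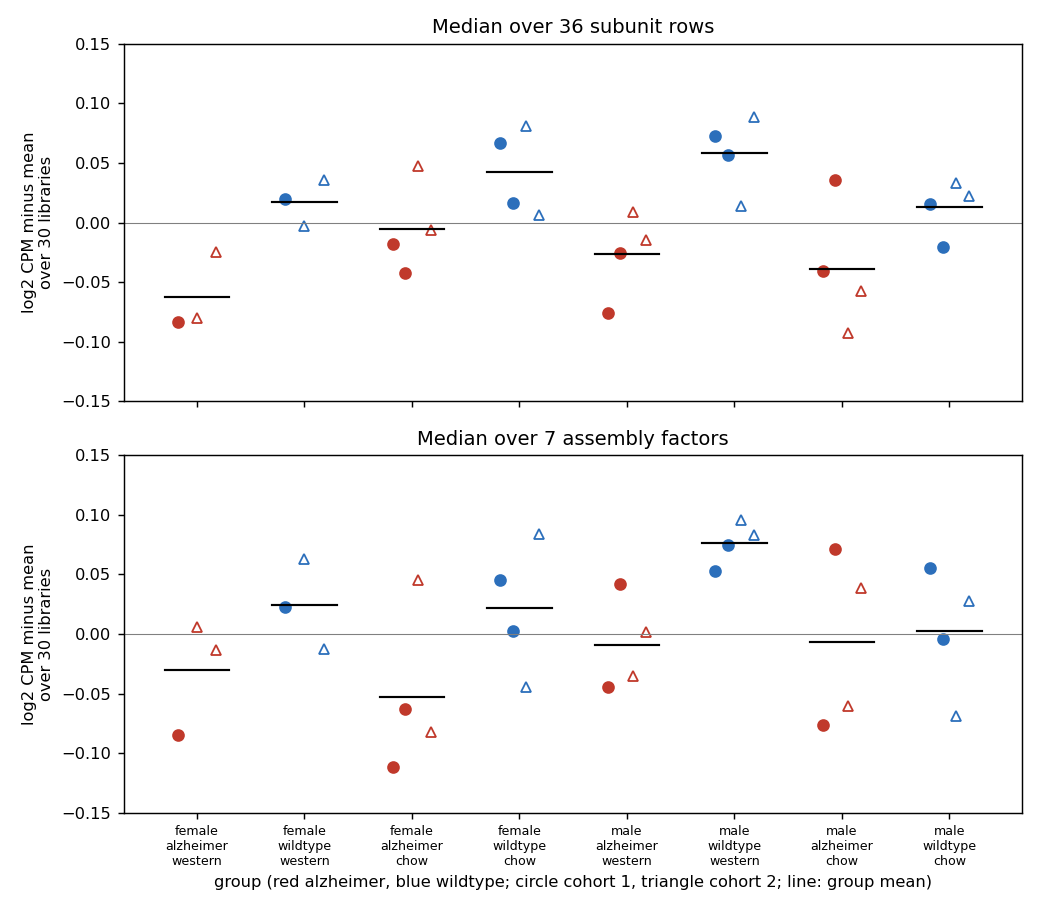
Median deviation in log2 CPM from the mean over 30 libraries (y axes) for the 36 subunit genes (top) and the 7 assembly factors (bottom) in each library of the 8 groups (x axis), alzheimer in red and wildtype in blue, cohort 1 as circles, cohort 2 as triangles and the group mean as a line. In each pair the alzheimer mean lies below the wildtype mean. The genotypes do not overlap for the subunit genes on western diet in either sex or for the assembly factors in males on western diet, and overlap in the other pairs.

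The labelled cohorts share no library, and the genotype difference was fitted in each alone. The fold change was negative in both cohorts for 32 of 36 subunit genes (88.9%) and 6 of 7 assembly factors (85.7%), against 32.1% of 12461 genes. Its median over the subunit genes was −0.0735 in cohort 1 and −0.0614 in cohort 2, and over the assembly factors −0.0784 in cohort 1 and −0.0569 in cohort 2. Fewer genes passed in a cohort alone. In cohort 1 only Ndufb9 passed, at −0.15 ± 0.0321 (adjusted p = 0.0332), and 21 of the 12461 genes fell. In cohort 2 Ndufb8, Ndufb9, Ndufb2 and Ndufa8 passed, with adjusted p of 0.0193, 0.0248, 0.0278 and 0.0318. There 292 of the 12461 genes fell, so calls over all genes were also more numerous in cohort 2. Ndufs1, the low Ndufs6 and Ndufaf1 were positive in both cohorts.

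**Figure D4:**
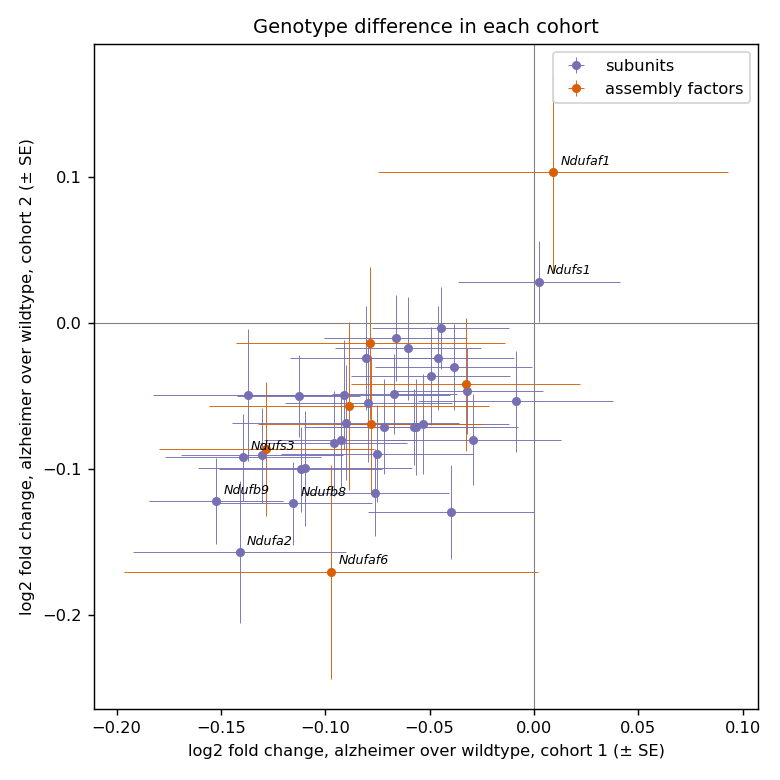
Log2 fold change in alzheimer over wildtype libraries in cohort 1 (x axis) and in cohort 2 (y axis), ± SE, for 33 subunit genes and 7 assembly factors; Ndufs6, Ndufa4l2 and Ndufa10l1, whose SE in cohort 1 was over 0.15, are not drawn. Ndufb9, Ndufs3, Ndufb8 and Ndufa2 lie low on both axes, and Ndufs1 and Ndufaf1 are the only drawn genes above 0 on both.

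Promoters of genes from the list are printed to show how they differ in motifs of factors known to drive nuclear genes of the respiratory chain, NRF1, YY1 and the ETS family. Windows from 250 bases before to 50 bases after the start site were taken from RefSeq for GRCr8, which held one for 38 of the 43 genes. Ndufa8, Ndufa10l1, Ndufaf6 and Ndufb9 were among those with no entry. Each window was searched on both strands for GCGCA, any base and then GCGC (NRF1-type), for AAGATGGC (YY1-type) and for CCGGAAG (ETS-type). Hits of different motifs did not overlap in any Nduf window, while 2 NRF1-type hits overlapped each other in Ndufa11. The genes shown are Ndufb4 and Ndufb8, which fell and hold a motif close to the start site, Ndufs3, which fell and holds none, and Ndufs1 and Ndufaf4, which did not pass and hold one. Capitals mark the motif, which in Ndufb4 is NRF1-type at position 3 (chr11:76568928-76569227, plus strand), in Ndufb8 YY1-type at position 22 (chr1:253362887-253363186, minus strand), in Ndufs1 ETS-type on the opposite strand at position −199 (chr9:72073556-72073855, minus strand) and in Ndufaf4 NRF1-type at position −158 (chr5:43401545-43401844, plus strand). Ndufs3 is chr3:97339605-97339904 on the minus strand. Positions are those of the motif's leftmost printed base, counted from 1 at the start site.
Ndufb4: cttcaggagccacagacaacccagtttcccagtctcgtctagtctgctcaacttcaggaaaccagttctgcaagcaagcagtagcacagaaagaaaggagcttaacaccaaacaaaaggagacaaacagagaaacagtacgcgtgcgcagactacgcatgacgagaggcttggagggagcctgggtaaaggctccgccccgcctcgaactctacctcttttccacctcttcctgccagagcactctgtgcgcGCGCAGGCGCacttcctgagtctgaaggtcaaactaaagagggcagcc
Ndufb8: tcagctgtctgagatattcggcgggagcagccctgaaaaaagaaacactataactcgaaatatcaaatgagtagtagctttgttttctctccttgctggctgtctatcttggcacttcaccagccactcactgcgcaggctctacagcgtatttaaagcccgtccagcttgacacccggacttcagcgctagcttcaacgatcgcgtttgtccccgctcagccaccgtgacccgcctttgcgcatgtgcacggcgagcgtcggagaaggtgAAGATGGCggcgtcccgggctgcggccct
Ndufs3: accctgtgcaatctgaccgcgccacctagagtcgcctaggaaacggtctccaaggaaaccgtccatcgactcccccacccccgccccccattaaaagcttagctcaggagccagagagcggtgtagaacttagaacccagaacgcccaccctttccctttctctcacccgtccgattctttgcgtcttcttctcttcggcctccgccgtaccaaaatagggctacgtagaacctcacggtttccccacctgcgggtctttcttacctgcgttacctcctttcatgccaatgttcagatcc
Ndufs1: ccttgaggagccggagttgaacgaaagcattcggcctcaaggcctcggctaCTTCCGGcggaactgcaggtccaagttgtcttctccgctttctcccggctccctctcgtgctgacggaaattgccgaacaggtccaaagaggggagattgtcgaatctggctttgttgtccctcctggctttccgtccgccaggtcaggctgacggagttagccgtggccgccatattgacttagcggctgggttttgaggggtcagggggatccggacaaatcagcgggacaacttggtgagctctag
Ndufaf4: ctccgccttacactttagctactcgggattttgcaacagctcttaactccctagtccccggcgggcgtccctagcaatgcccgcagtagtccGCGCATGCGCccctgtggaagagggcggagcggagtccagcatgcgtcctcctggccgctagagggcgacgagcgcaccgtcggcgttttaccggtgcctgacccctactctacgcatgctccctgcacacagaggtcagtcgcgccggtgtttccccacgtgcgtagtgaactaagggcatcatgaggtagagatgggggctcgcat

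The NRF1-type motif was in 9 of 38 Nduf windows (23.7%), against 4.25% of all 33469 windows. The YY1-type motif was in 9 (23.7%), against 3.17%, and the ETS-type motif in 8 (21.1%), against 8.75%. At least 1 of the motifs was in 22 of 38 Nduf windows (57.9%), against 4881 of all 33469 windows (14.6%). It was in 4 of the 10 windows of genes that fell (40%). The NRF1-type motif was in 1 of those 10 (10%), against 8 of 28 windows of genes that did not pass (28.6%). The YY1-type motif was in 2 of the 10 (20%), against 7 of the 28 (25%), and the ETS-type motif in 2 of the 10 (20%), against 6 of the 28 (21.4%). These shares describe letters in the windows and are neither a test nor a count of bound sites.

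Within a diet or a sex, fewer libraries entered each difference and fewer Nduf genes passed. On western diet 5 of 43 fell in alzheimer, all of them subunit genes, against 1.67% of all genes, namely Ndufb9 (−0.15, adjusted p = 0.00301), Ndufs3 (−0.15, adjusted p = 0.00917), Ndufb8 (−0.16, adjusted p = 0.0127), Ndufa8 (−0.13, adjusted p = 0.0139) and Ndufv3 (−0.13, adjusted p = 0.0471). Without female_wildtype_western replicate 22 there were 3, with Ndufb8 (adjusted p = 0.0507) and Ndufv3 (0.0636) lost, and the Ndufa8 call was lost without female_wildtype_western replicate 17 (0.0556). Ndufv3, an accessory subunit of the NADH-oxidising module, lost its call on leaving out any of 16 libraries, with adjusted p of 0.0510 to 0.142. On chow Ndufb9 fell (−0.12, adjusted p = 0.0193), against 0.359% of all genes. Without male_wildtype_chow replicate 4, female_wildtype_chow replicate 15 or male_alzheimer_chow replicate 25 it did not pass (adjusted p = 0.0720, 0.0658 and 0.0549), and without male_alzheimer_chow replicate 8 there were 3 Nduf genes.

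In males Ndufb9 (−0.13, adjusted p = 0.00547) and Ndufs3 (−0.14, adjusted p = 0.0166) fell, 2 of 43 against 0.566% of all genes. In females Ndufb9 fell (−0.13, adjusted p = 0.00772), 1 of 43 against 1.33%. Without male_alzheimer_chow replicate 8, 8 Nduf genes passed in males and 2 in females, although that library is in no female group. Over both sexes and diets, 612 of 12540 genes fell in that fit, against 488 of 12547 in the main fit. Calls over all genes were thus also more numerous without it. Its counts over all genes within a sex are not given. In the main fit the median over the subunit genes was −0.071 on western diet and −0.048 on chow, and −0.060 in females and −0.062 in males. Over the assembly factors it was −0.096 on western diet and −0.063 on chow, and −0.072 in females and −0.054 in males, with no assembly factor called in any stratum. The strata share one estimate of the spread.

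The differences between strata were tested directly. For genotype by diet, alzheimer minus wildtype on western diet less the same on chow, 0 of 43 Nduf genes passed, against 0% of all genes. The smallest p was that of Ndufv3, at −0.12 ± 0.0493. Its level was 71.0 ± 3.35 CPM in female alzheimer and 79.0 ± 1.22 CPM in female wildtype libraries on western diet (SD, n = 3 each), and 73.5 ± 2.79 CPM in male alzheimer and 78.6 ± 1.15 CPM in male wildtype libraries on that diet (SD, n = 4 each). For genotype by sex, 0 of 43 passed, against 0% of all genes, and Ndufv3 again had the smallest p, at −0.093 ± 0.0493. At an unadjusted p under 0.05, 1 Nduf gene was lower and 0 higher for genotype by diet, and 0 were lower or higher for genotype by sex. DESeq2 and limma-voom also called 0 in both. So a call in 1 stratum and not in another does not show a difference between them.

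The diet comparison asked what the western diet changed against chow. No Nduf gene passed, with 0 of 43 against 0.00797% of all genes, and 2 subunit genes were lower at an unadjusted p under 0.05. The smallest p was that of Ndufc2, a membrane arm subunit, at −0.071 ± 0.0253 (adjusted p = 0.822). Its level was 78.0 to 96.0 CPM on western diet, against 83.4 to 98.2 CPM on chow. The median was −0.0069 over the subunit genes and 0.013 over the assembly factors. Within alzheimer rats 0 of 43 passed, against 0% of all genes, with Ndufb6 (−0.082 ± 0.0324) at the smallest p. Within wildtype rats 0 of 43 passed, against 0% of all genes, with Ndufc2 (−0.099 ± 0.0357) at the smallest p. Unadjusted p was under 0.05 for 2 subunit genes, both lower, in alzheimer rats, and for 1 subunit gene, lower, and 1 assembly factor, higher, in wildtype rats. DESeq2 and limma-voom called 0 in these 3 diet comparisons.

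The sex comparison set female against male libraries. No Nduf gene passed, with 0 of 43 against 0.837% of all genes, and the median was −0.0066 over the subunit genes and −0.024 over the assembly factors. Ndufb10, a membrane arm subunit on the intermembrane-space side, had the smallest p, at 0.049 ± 0.0205 (adjusted p = 0.240). Unadjusted p was under 0.05 for Ndufb10, higher in females, and for the assembly factor Ndufaf4, at −0.071, and DESeq2 and limma-voom called 0.

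Whether the diet difference itself differed between females and males was tested as western minus chow in females less the same in males. Here 0 of 43 Nduf genes passed, against 1.23% of all genes. At an unadjusted p under 0.05, 9 subunit genes were lower and 0 higher, Ndufb9, Ndufa8, Ndufv2, Ndufb3, Ndufa6, Ndufb5, Ndufa4, Ndufs5 and Ndufb11. The median was −0.069 over the subunit genes and −0.072 over the assembly factors, against −0.0044 over all genes. Ndufb9 lay nearest to the threshold, at −0.15 ± 0.0391 (adjusted p = 0.0545). It averaged 154 ± 6.90 CPM on western diet and 163 ± 0.907 CPM on chow in female alzheimer libraries, and 170 ± 4.23 CPM on western diet and 176 ± 8.13 CPM on chow in female wildtype libraries. In males it averaged 163 ± 3.52 CPM on western diet and 156 ± 5.43 CPM on chow in alzheimer libraries, and 180 ± 3.86 CPM on western diet and 169 ± 5.67 CPM on chow in wildtype libraries. The mean on western diet was thus below that on chow in both female pairs and above it in both male pairs. Without any 1 of replicates 4, 8, 13, 20, 21 and 30 Ndufb9 passed, with adjusted p of 0.0312 to 0.0492. DESeq2 called it as well (adjusted p = 0.0182), while limma-voom called 0.

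Genes outside the family were read in the same comparison. Of 39 genes of complexes II to V, 38 had negative differences, 0 passed in edgeR, 13 were lower at an unadjusted p under 0.05, and the median was −0.077. Among 5 microglia markers 1 fell, P2ry12 at −0.46 (adjusted p = 0.0236), and the median was −0.24. Among 5 endothelial markers 1 fell, Cldn5 at −0.26 (adjusted p = 0.0107), and the median was −0.22. Among 4 oligodendrocyte precursor markers 1 rose, Olig2 at 0.53 (adjusted p = 0.00113). None of the 6 oligodendrocyte markers passed, with a median of −0.21 and all 6 negative, and 0 of 7 neuron markers passed, with a median of 0.071. Summed endothelial markers were 210 to 289 CPM on western diet and 248 to 300.5 CPM on chow in females, and 231 to 310 CPM on western diet and 211 to 270 CPM on chow in males. Summed microglia markers were 198 to 223 CPM on western diet and 199 to 230 CPM on chow in females, and 188 to 223 CPM on western diet and 170 to 214 CPM on chow in males. Summed oligodendrocyte markers were 7816 to 12710 CPM on western diet and 10130 to 13550 CPM on chow in females, and 9093 to 14050 CPM on western diet and 7861 to 12870 CPM on chow in males. Summed oligodendrocyte precursor markers were 343 to 457 CPM on western diet and 345 to 415.5 CPM on chow in females. In males they were 328 to 404 CPM on western diet and 333 to 428.5 CPM on chow. All these ranges overlapped, and the part of these cell types in the Nduf values was not tested. The other marker lists are not given for this comparison.

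**Figure D5:**
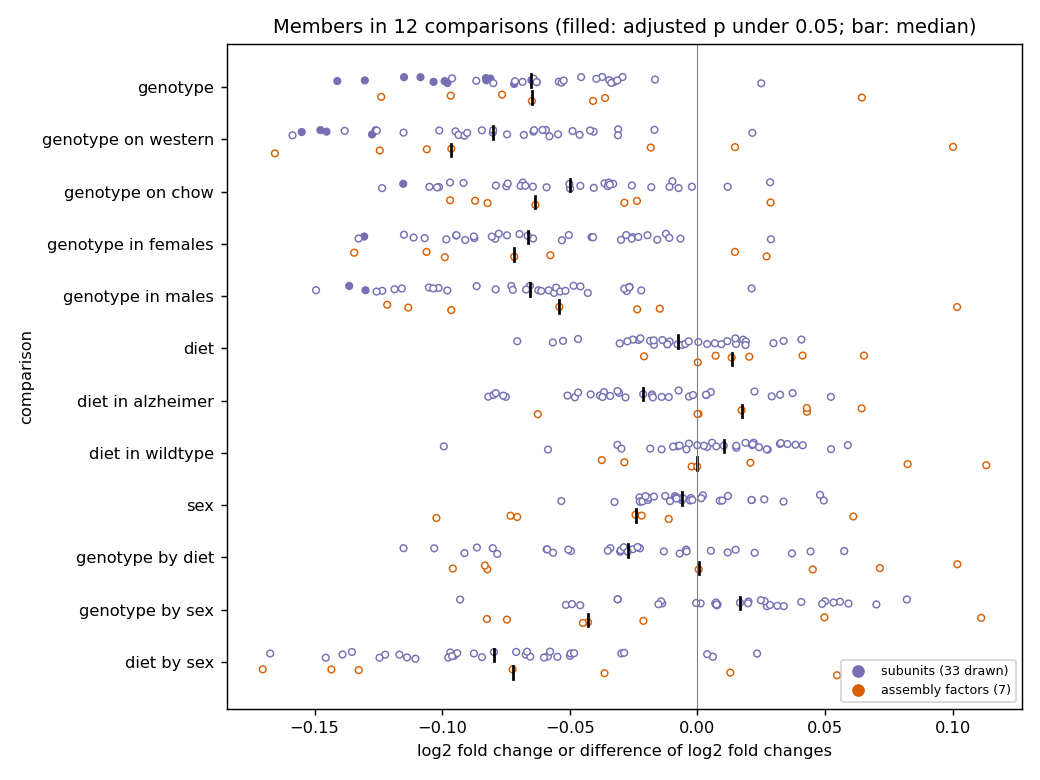
Log2 fold changes, or differences of log2 fold changes, of 33 subunit genes and 7 assembly factors (x axis) in the 12 comparisons (y axis), with filled points at an adjusted p under 0.05 and bars at the median of the points drawn; Ndufs6, Ndufa4l2 and Ndufa10l1 are not drawn. Filled points occur in the 5 genotype comparisons alone, and the subunit points of diet by sex lie mostly below 0.

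Other genes of the same organelle were set beside the Nduf genes for the genotype comparison. Of 39 tested genes of complexes II to V, 16 fell and 0 rose, and the median was −0.073. By complex, 0 of 4 fell in complex II, 3 of 9 in complex III, 7 of 10 in complex IV and 6 of 16 in ATP synthase. Examples were Cox6a1 (−0.13, adjusted p = 4.80e-05) and Cox4i1 (−0.10, adjusted p = 0.000158) of complex IV, Atp5f1e (−0.16, adjusted p = 0.000646) of ATP synthase and Uqcrq (−0.13, adjusted p = 0.00216) of complex III. Of 9 tested complex I assembly factors without an Ndufaf symbol, 0 fell and the median was −0.0026. The nearest was Timmdc1, at −0.11 ± 0.0348 (adjusted p = 0.0502). The 7 complex I genes of mitochondrial DNA were not analysed here.

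Of 17 general mitochondrial genes, such as import, chaperone and mtDNA upkeep genes, 0 fell, 1 rose and the median was −0.00040. The gene that rose was Hspa9, a matrix chaperone, at 0.066 (adjusted p = 0.0451). Of 9 genes that supply iron-sulfur clusters, 1 fell, the scaffold Iscu at −0.086 (adjusted p = 0.0118), and the median was 0.013. The difference between these lists and the Nduf genes was not tested.

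Cell type markers were also read for genotype, where 3.89% of all genes tested fell and 4.14% rose. Of the markers that passed, only Syt1 is named, and the others are counted. Of 7 neuron markers 0 fell and 1 rose, Syt1 at 0.10 (adjusted p = 0.0136), and their summed level was 5788 to 6501 CPM in alzheimer libraries, against 5826 to 6771 CPM in wildtype libraries. Of 7 astrocyte markers 2 fell and 1 rose, with summed levels of 4364 to 5161 CPM in alzheimer libraries, against 4159 to 5089 CPM in wildtype libraries. Of 6 oligodendrocyte markers 1 fell, at 7816 to 12720 CPM in alzheimer libraries, against 7861 to 14050 CPM in wildtype libraries. Of 5 endothelial markers 2 fell, at 210 to 271 CPM in alzheimer libraries, against 211 to 310 CPM in wildtype libraries. Of 5 pericyte markers 2 fell, at 84.6 to 122 CPM in alzheimer libraries, against 101 to 134 CPM in wildtype libraries. Of 3 tested dentate gyrus markers 2 fell, at 272 to 361 CPM in alzheimer libraries, against 288 to 413 CPM in wildtype libraries. Of 3 tested CA1 markers 1 fell, at 920 to 1406 CPM in alzheimer libraries, against 985 to 1344 CPM in wildtype libraries. All these ranges overlapped, and 1 of 5 interneuron and 1 of 5 microglia markers fell, while 0 of 4 precursor, 0 of 4 choroid plexus, 0 of 4 ependyma and 0 of 2 blood markers did. Choroid plexus markers summed to 2.36 to 62.6 CPM in alzheimer libraries, against 2.65 to 36.7 CPM in wildtype libraries, and no marker of any list was at 0 in all libraries. Without the 3 libraries highest in choroid plexus markers, 9 of the 12 subunit genes fell. In that fit 412 of 12622 genes fell, against 488 of 12547 in the main fit. The part of cell composition, choroid plexus included, in the Nduf differences was not tested.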

How the data were processed

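PolyA RNA of 30 snap-frozen rat dorsal hippocampus samples was sequenced. Trimming used cutadapt, of a version not stated, and alignment used STAR 2.7.0a, per the submitters' processing notes. No source used here gives the counting tool, strand setting, genome build or annotation. The authors deposited raw counts per gene symbol, with no scaling, which the whole numbers and unequal column totals bear out.

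From these counts, genes were kept by filterByExpr (minimum count 10, minimum total 15), 12547 of 17455, and library sizes were scaled by TMM. edgeR 4.0.16 in R 4.3.3 fitted 1 coefficient per sex, genotype and diet group plus cohort, with two-sided quasi-likelihood F tests for 12 contrasts, each averaging the other factors with equal weights. For counts below the matched wildtype mean, each alzheimer library was set against the mean of the wildtype libraries of its sex and diet. Counts below every wildtype library or below the wildtype median used all 15 wildtype libraries, unmatched. Alternatives were median-of-ratios factors, 2 other filters, DESeq2 1.42.0, limma-voom (limma 3.58.1) with quality weights, no cohort term, 2 surrogate variables (sva 3.50.0), each cohort alone, and leaving out each library. Leaving out the 3 libraries highest in choroid plexus markers was added after seeing the data.

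Fits were tested on simulated data. Agreement of replicates was checked on all 42 pairs within a group, across cohorts too, whose chi-square per degree of freedom was 2.98 to 10.95, so none was a repeated library. The labels do not state that each library is a separate animal, so p-values measure the spread between libraries. Genes and lists were chosen with earlier results of these data known. Named were up to 10 called genes for genotype and 5 for other contrasts by smallest p, the gene with the smallest p of each class, all Ndufaf genes and, where none was called, the gene with the smallest p; Ndufb11, Ndufb2, Ndufs1 and others named with values that did not pass were added after their values were seen. Of the genes, 1 is counted among the 43 but not reported here by name or drawn by name.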

Additional observations from a re-analysis of the deposited data

Results flagged for a closer look

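In 150 groups of 4 libraries, over 25 quantities, the library farthest from its group was compared with the others by Dixon's ratio, for which chance marks about 1 group in 20. This marked 3 values. Ndufb3, a membrane arm subunit, was at 78.22 CPM in female_alzheimer_chow replicate 16, while the other 3 libraries of that group had 72.42 to 73.25 CPM. The assembly factor Ndufaf4 was at 30.19 CPM in female_wildtype_chow replicate 13, while the other 3 libraries had 27.64 to 28.02 CPM. Ndufaf4 was also at 28.8 CPM in male_wildtype_chow replicate 7, while the other 3 libraries had 31.37 to 31.8 CPM.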

How the results depend on the processing

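None of the 35 single-gene results followed through the alternatives changed sign. These were the called genes, the Ndufaf genes for genotype and, where none was called, the gene with the smallest p. Other genes were not followed in this way. The low Ndufa4l2 and Ndufa10l1 did change sign for genotype, at −0.017 and −0.077 in cohort 1 alone, against 0.16 and 0.16 in cohort 2 alone. Of the medians, that of the subunit genes for diet (−0.0069) was 0.0014 in cohort 2 alone and 0.0025 without male_alzheimer_chow replicate 8, and that for sex (−0.0066) was 0.0058 in cohort 2 alone. Of 360 counts and medians under the 10 alternatives other than leaving out 1 library, 344 kept their value within the set limits. Of 350 values of single genes 301 stayed as they were, called or not called, 47 lost their call (37 of them in a cohort alone) and 2 gained one. Many of the 344 were counts of 0 in the main fit, and the 301 include genes not called there. Neither share therefore measures how stable the calls were. The number of subunit genes lower in alzheimer, 12, was 1 in cohort 1 alone and 4 in cohort 2 alone, and between 9 and 15 on leaving out 1 library. Over all genes tested, 488 fell in the main fit, 21 in cohort 1 alone and 292 in cohort 2 alone. With DESeq2 579 fell, with limma-voom 550, and on leaving out 1 library between 415 and 612. The Nduf counts that follow for a diet, a sex or diet by sex stand without the share of all genes in those fits. They are not read as results about the Nduf genes. Assembly factors lower numbered 0 to 1 on leaving out 1 library. Nduf genes lower in alzheimer on chow numbered 0 in either cohort alone and 0 to 3 on leaving out 1 library. On western diet there were 0 in either cohort alone, 3 without the 3 libraries highest in choroid plexus markers, and 3 to 6 on leaving out 1 library. In males there were 5 with DESeq2, 4 with limma-voom, 0 in either cohort alone and 2 to 8 on leaving out 1 library. In females there were 0 in either cohort alone and 1 to 2 on leaving out 1 library. Cohorts alone hold 14 or 16 of the 30 libraries. For diet by sex 1 Nduf gene was lower, Ndufb9, when genes needed 1 CPM in 8 libraries (adjusted p = 0.0485) and with DESeq2 (adjusted p = 0.0182), and 0 to 1 on leaving out 1 library. The sex median over the assembly factors was −0.11 in cohort 1 alone. For genotype, Ndufb2 was lost without a filter, without the cohort term and without the 3 choroid plexus libraries (adjusted p = 0.0504, 0.0515 and 0.0985), and the last of these also lost Ndufa4 and Ndufb11 (0.0808 each). The causes were not tested. No paired analysis was possible because each library has a running number of its own and the groups share no replicate numbers. Depth limits Ndufs6, Ndufa10l1 and Ndufa4l2 most, with 583, 310 and 1606 counts over all libraries.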
